A study of Mus musculus with 21 samples.

Results

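The 30 genes described here encode the proteins that bring pyruvate into mitochondria, commit it to acetyl-CoA or oxaloacetate, and carry the carbon around the citric acid cycle. They were taken by symbol from a table of 78317 gene rows, each matched 1 row, and all 30 passed the filter on low counts that left 18901 genes for testing. By role they are the mitochondrial pyruvate carrier (2 genes), the pyruvate dehydrogenase complex (5), its kinases (4) and phosphatases (2), pyruvate carboxylase (1), the steps from citrate to succinyl-CoA (6), succinyl-CoA ligase (3), succinate dehydrogenase (4) and the steps from fumarate to oxaloacetate (3). RNA was sequenced from E14 cells, an established mouse embryonic stem cell line, in 21 libraries that form 7 groups of 3. One group was kept in standard stem cell culture (ES). The other groups spent 3, 5 or 7 days with vehicle or with pyridoxine, which is a form of vitamin B6, at 20 µM (VB6). Every group is the same line. Nothing in the labels ties the 3 libraries of a group to separate cultures, so p-values here measure only the spread between libraries, which may be technical.

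Pyruvate made by glycolysis crosses the inner mitochondrial membrane through a carrier built from MPC1 and MPC2. The pyruvate dehydrogenase complex then turns it into acetyl-CoA, and the PDK kinases switch that complex off by phosphorylation while the PDP phosphatases switch it back on. Pyruvate carboxylase instead makes oxaloacetate, which refills the cycle when intermediates are withdrawn. Pluripotent cells in culture are known for high glycolysis, and the balance between pyruvate oxidation and lactate production is known to shift as they leave pluripotency.

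The windows before the start sites of both carrier genes and of Pdk4 and Pdk1 are shown because these are the carrier and the kinase genes with the largest changes below. They come from the RefSeq promoter table on GRCm38.p6, the same assembly as mm10, and are printed 5′ to 3′ on the gene's strand. Capitals mark the letters ACGTG or GCGTG, the core bound by hypoxia-inducible factors, on either strand, where the other strand reads CACGT or CACGC, and CCGGAAG, a core of ETS factors. The Mpc1 window is at chr17:8283537-8283786 (+), that of Mpc2 at chr1:165461010-165461259 (+), that of Pdk4 at chr6:5496279-5496528 (-) and that of Pdk1 at chr2:71872974-71873223 (+). The start sites are those of RefSeq. By the GENCODE gene positions given below, the Mpc1 and Mpc2 windows lie inside the gene and the Pdk4 window overlaps it in part.
Mpc1: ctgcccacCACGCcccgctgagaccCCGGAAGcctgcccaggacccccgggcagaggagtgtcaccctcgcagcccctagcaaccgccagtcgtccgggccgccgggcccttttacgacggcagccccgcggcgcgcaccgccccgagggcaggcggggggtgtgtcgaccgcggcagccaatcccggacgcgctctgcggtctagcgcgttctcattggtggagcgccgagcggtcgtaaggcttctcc
Mpc2: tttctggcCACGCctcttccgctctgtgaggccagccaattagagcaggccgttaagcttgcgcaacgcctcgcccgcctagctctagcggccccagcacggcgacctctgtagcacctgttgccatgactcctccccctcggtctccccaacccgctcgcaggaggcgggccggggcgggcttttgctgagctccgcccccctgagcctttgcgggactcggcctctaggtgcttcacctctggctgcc
Pdk4: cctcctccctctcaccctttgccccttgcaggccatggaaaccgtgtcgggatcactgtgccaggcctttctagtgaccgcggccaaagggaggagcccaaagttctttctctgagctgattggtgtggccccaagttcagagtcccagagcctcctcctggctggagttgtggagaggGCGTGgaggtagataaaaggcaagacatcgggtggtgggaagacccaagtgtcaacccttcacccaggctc
Pdk1: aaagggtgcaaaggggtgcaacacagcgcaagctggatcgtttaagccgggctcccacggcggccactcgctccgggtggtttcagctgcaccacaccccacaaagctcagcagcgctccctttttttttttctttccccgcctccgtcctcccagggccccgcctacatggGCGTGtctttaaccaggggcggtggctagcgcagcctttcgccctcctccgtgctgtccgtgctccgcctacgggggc
Each printed window holds 1 whole match to the hypoxia core, and Mpc1 also holds 1 ETS core. Pdk1 has 2 in its full window, the second of which runs over the start site and past the printed end. From ES to vehicle day 3, Pdk1 rose and Mpc1, Mpc2 and Pdk4 fell, and the core is present in the printed windows of all 4. Pdk1 and Mpc1 each have a further RefSeq window at another start, which holds neither a hypoxia core nor an ETS core. RefSeq windows of 300 bases (250 before and 50 after the start) matched 27 of the 30 genes, and Pdp1, Idh3a and Sdhc had none. The hypoxia core occurred in at least 1 window of 20 of 27 (74.1%), against 65.1% of the tested genes with a window and 46.7% of all genes with a window. The ETS core occurred in 6 (22.2% against 18% of tested genes), the NRF1 centre GCATGCG in 3 (11.1% against 6.75%) and AAGGTCA, bound by oestrogen-related receptors, in 2 (7.41% against 4.01%). These are matches of letters and describe the windows only.

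Libraries held 15882380 to 21629730 expected counts. The vehicle day 5 and VB6 day 7 libraries stood apart: the fragment length implied by the tables was 220 to 237 nt and 260 to 275 nt, against 303 to 315 nt elsewhere, mitochondrially encoded reads were 4.08 to 4.47% and 3.00 to 3.49% against 1.51 to 2.94%, and ribosomal protein genes took 3.12 to 3.40% and 3.03 to 3.24% against 4.98 to 6.76%. Comparisons with those 2 groups are therefore given with 2 further versions, a fit corrected for GC content and transcript length and a fit on log2(TPM + 1). Marker genes followed the labels: the summed TPM of 4 naive stem cell markers was 462 to 615 in ES and 35.8 to 81.8 elsewhere, and that of 4 visceral endoderm markers rose from 0.40 to 0.91 in ES to 1628 to 1752 at vehicle day 7 and 2185 to 2767 at VB6 day 7. Fibroblast and feeder markers, present in ES at 17.0 to 22.2 TPM in sum, reached 106 to 152 at vehicle day 7 and 135 to 217 at VB6 day 7.

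Within ES, on the TPM scale, which is per length and so allows genes to be compared, Mdh2 was the most abundant member at 287 ± 35.6 TPM (SD, n = 3), followed by Sdhc at 190 ± 9.32, Pdhb at 177 ± 3.35 and Sdhd at 176 ± 5.55. Mdh2 makes mitochondrial malate dehydrogenase, Pdhb the beta subunit of pyruvate dehydrogenase, and Sdhc and Sdhd the membrane anchors of succinate dehydrogenase. The kinases were spread, with Pdk1 at 64.0 ± 4.01, Pdk3 at 37.1 ± 0.95, Pdk2 at 14.9 ± 3.42 and Pdk4 at 14.8 ± 0.987 TPM, so that Pdk1 had a higher mean than Dld, Dlat and Ogdh. The phosphatases had the lowest means, Pdp2 at 6.76 ± 0.602 and Pdp1 at 6.41 ± 0.0833 TPM. Mpc1 stood at 83.7 ± 1.95 TPM and its partner Mpc2 at 27.8 ± 1.36.

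Levels across groups are given below in CPM, counts scaled to library size with TMM factors, and changes as log2 fold changes ± SE from edgeR. ES had the highest group mean CPM of the 7 groups in 19 of 30 members, and in 16 of them all 3 ES libraries lay above the other 18 libraries. On the TPM scale ES was highest in 11. Such counts were not made over all genes, so they are not read as particular to the members. The spread between groups was uneven: the highest group mean was 10.9 times the lowest in Mpc1, 5.99 times in Pdk4, 5.06 times in Pcx and 2.94 times in Pdk1, while 12 members stayed under 1.5 times. Dlst, the E2 subunit of the 2-oxoglutarate dehydrogenase complex, was the steadiest in CPM at 1.09 times, followed by Fh1, fumarase, at 1.13 and Dlat, the E2 subunit of the pyruvate dehydrogenase complex, at 1.17. That order depended on the scale: in TPM the ratios were 1.52 for Dlst, 1.85 for Fh1 and 1.83 for Dlat, and Sdhd had the lowest at 1.36.

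**Figure D1:**
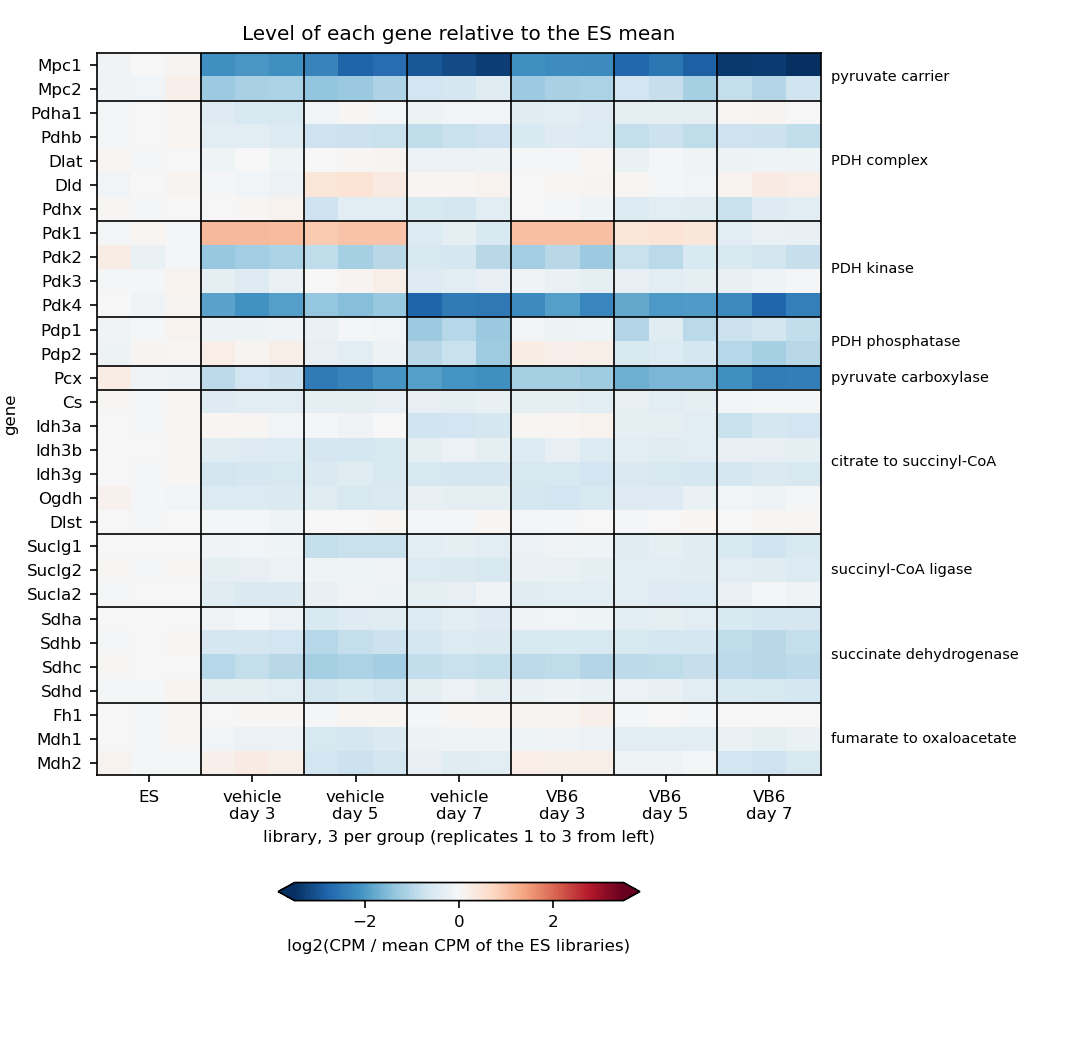
Level of each member in each of the 21 libraries as log2 of CPM over the mean CPM of the 3 ES libraries, with genes ordered by role and libraries by group. Mpc1, Pdk4 and Pcx are the darkest rows below the ES mean and Pdk1 is the row above it at days 3 and 5, while most rows of the cycle itself stay pale.

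Leaving stem cell culture for 3 days in vehicle lowered most of these transcripts. Against ES, edgeR called 20 of 30 lower and 2 higher at an adjusted p under 0.05 (22 of 30, against 64.9% of all genes tested, of which 31.8% were called lower and 33.1% higher). The median change was -0.34 for the members and 0.01 for all genes. In all 22 the groups did not overlap. The share of such genes among all called genes was not computed, so this is not read as particular to the members. All 22 were called the same way after the GC and length correction (24 lower and 2 higher in that fit, against 72.2% of its genes called). The 20 lower were also called lower on the TPM scale, where Pdk1 was the single member called higher. By role, those that fell were both carrier genes, 2 of 5 genes of the dehydrogenase complex, 3 of 4 kinases, Pcx, 4 of 6 genes from citrate to succinyl-CoA, all 3 of succinyl-CoA ligase, all 4 of succinate dehydrogenase and 1 of 3 from fumarate to oxaloacetate. In such bulk samples, fewer cells of a type and less RNA per cell cannot be told apart. The markers of naive cells fell between these groups from 462 to 615 TPM in sum to 72.3 to 81.8, and 3 epiblast markers rose from 49.3 to 63.9 to 754 to 869. The mean GC content of annotated transcripts, weighted by counts, did not overlap (49.2 to 49.8% in ES and 48.8 to 49.0% in vehicle day 3). Nor did the mitochondrial share (1.51 to 1.90 and 2.34 to 2.57%). The part of all these in the changes was not tested.

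VB6 day 3 against the same ES libraries gave 20 lower and 4 higher (24 of 30, against 65.3% of genes tested, 32.1% lower and 33.2% higher). After correction it gave 22 lower and 2 higher, with 72.4% of genes called. Because both comparisons use the same ES libraries, their values are set side by side only. Mpc1 changed by -2.10 ± 0.11 in vehicle and by -2.19 ± 0.11 in VB6. Pdk4 changed by -1.97 ± 0.12 and by -2.13 ± 0.12, Sdhc by -0.94 ± 0.05 and by -0.95 ± 0.05, and Pdk1 by 1.12 ± 0.06 and by 1.05 ± 0.06.

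Mpc1 of the pyruvate carrier fell furthest of the 30 members, and the 2 subunits then took different courses. Mpc1 (chr17:8282904-8297661, mm10), an obligate subunit, had 38.2, 42.1 and 44.5 CPM in the ES libraries and 9.48, 10.2 and 9.37 in vehicle day 3. It had 8.26, 5.99 and 6.55 CPM in vehicle day 5 and 5.32, 4.73 and 4.23 in vehicle day 7. The VB6 libraries had 9.45, 9.05 and 8.80 CPM at day 3, 6.21, 7.24 and 5.75 at day 5 and 3.98, 4.11 and 3.35 at day 7. In CPM every later group of both arms lay wholly below the earlier one, so ES and day 7 were the ends of the series. In TPM the libraries of vehicle day 3 (16.95 to 19.45) and vehicle day 5 (13.99 to 18.5) overlapped. The change from vehicle day 3 to day 5 was not called after the GC and length correction (-0.26, edgeR adjusted p = 0.0514). Nor was it called on the TPM scale (-0.18, limma adjusted p = 0.169). A pseudogene row of Mpc1 held expected counts equal to 0.0726% of those of the gene. How many reads fitted both copies before assignment was not tested. From day 3 to day 7 in vehicle the change was -1.02 ± 0.13 (edgeR adjusted p = 2.10e-07).

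Mpc2 (chr1:165460637-165481214), the other subunit, had 15.6, 15.9 and 19.2 CPM in ES, then 7.06, 7.77 and 7.79 in vehicle day 3, 6.53, 6.91 and 7.95 in vehicle day 5 and 10.7, 11.03 and 12.6 in vehicle day 7. In VB6 it had 6.95, 7.75 and 7.91 CPM at day 3, 10.7, 9.74 and 7.56 at day 5 and 9.46, 8.32 and 10.5 at day 7. It fell by 1.17 on the log2 scale from ES to vehicle day 3 (SE 0.13) and rose again by 0.60 ± 0.13 from day 3 to day 7 (edgeR adjusted p = 0.000298), staying below ES in every vehicle and VB6 library. As a share of the summed TPM of the carrier, Mpc1 went from 75.1% in ES to 63.5% at vehicle day 3, 52.8% at day 5 and 34.6% at day 7, and in VB6 to 62.7%, 45.9% and 32.2%. No 2 of these vehicle groups overlapped, but 3 libraries against 3 cannot give an exact permutation p (two-sided) below 0.1, or 0.143 after adjustment over the 70 share comparisons made. At vehicle day 7 the 3 libraries had 39.8, 34.2 and 29.9%, and at VB6 day 7 the arms overlapped (exact permutation p = 0.6).

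**Figure D2:**
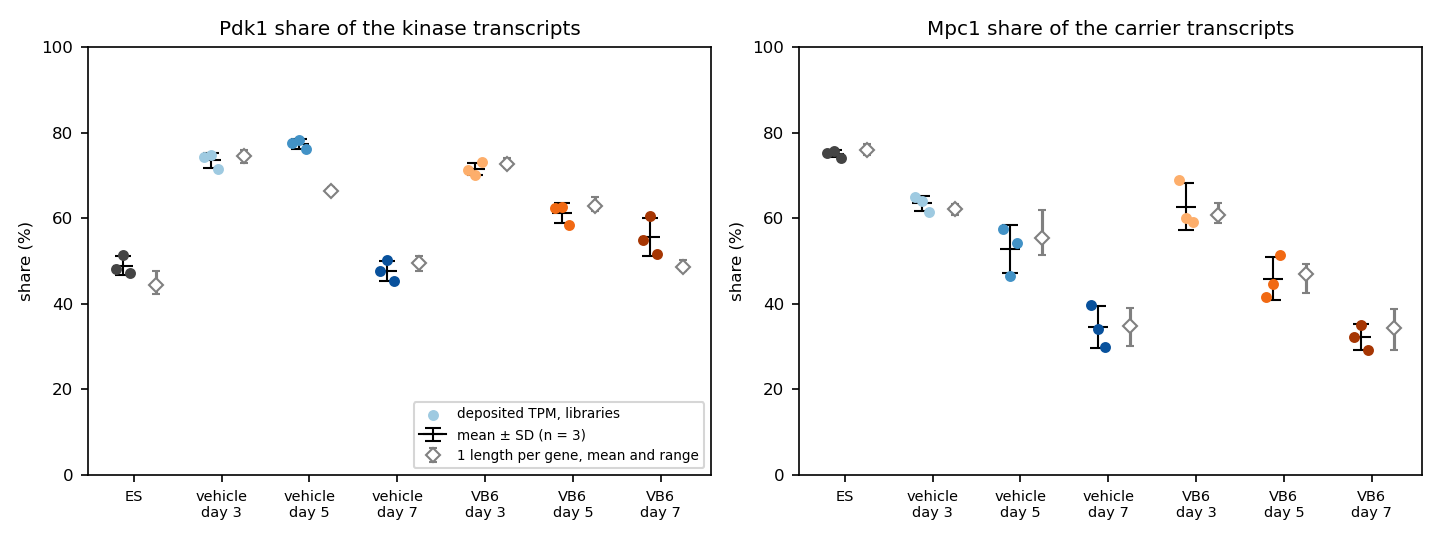
Pdk1 as a percentage of the summed TPM of the 4 kinase genes and Mpc1 as a percentage of the summed TPM of the 2 carrier genes, per library, with the deposited TPM as points and values at 1 fixed length per gene as diamonds. The Mpc1 share steps down from ES to day 7 in both arms on both scales, while the Pdk1 share of vehicle day 5 is above that of vehicle day 3 in TPM (77.3 against 73.5%) and below it at fixed length.

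Among the kinases the mixture changed as well as the amount. Pdk1 (chr2:71873224-71903858), which is known as a target of hypoxia-inducible factors, had 153, 165 and 152 CPM in ES and 343, 341 and 335 in vehicle day 3. It had 293, 311 and 314 CPM in vehicle day 5 and 113, 126 and 108 in vehicle day 7. In VB6 it had 321, 325 and 323 CPM at day 3, 209, 218 and 207 at day 5 and 120, 133 and 130 at day 7. Day 3 was thus above ES in every library of both arms, and day 7 was below every ES library in CPM, whereas in TPM the VB6 day 7 mean (73.3) was above that of ES (64.0). The fall from vehicle day 3 to day 7 was -1.56 ± 0.06 (edgeR adjusted p = 5.22e-17), -1.69 after correction and -1.44 on the TPM scale.

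The other kinases did not share that course. Pdk4 (chr6:5483351-5496309), best known as the kinase induced by fasting and fatty acid use, had 38.2, 34.3 and 40.3 CPM in ES, 10.2, 8.67 and 9.95 in vehicle day 3, 14.7, 13.4 and 15.1 in vehicle day 5 and 5.43, 6.83 and 6.60 in vehicle day 7. In VB6 it had 8.08, 9.92 and 7.71 CPM at day 3, 10.8, 9.26 and 9.56 at day 5 and 7.95, 5.51 and 7.12 at day 7. Every library outside ES was below every ES library. Pdk2, a broadly expressed kinase, had 26.2, 18.7 and 21.1 CPM in ES, 8.83, 9.39 and 10.2 in vehicle day 3, 11.8, 9.90 and 11.2 in vehicle day 5 and 15.0, 14.4 and 11.2 in vehicle day 7. The VB6 libraries of Pdk2 had 9.45, 11.1 and 9.09, then 12.8, 11.4 and 15.1, then 15.3, 14.1 and 12.7 CPM. Pdk2 fell by 1.21 on the log2 scale (SE 0.13) to vehicle day 3 and then rose by 0.51 ± 0.14 to day 7 (edgeR adjusted p = 0.0027).

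Pdk3, the remaining kinase, moved least: its libraries had 51.5, 50.8 and 57.7 CPM in ES, 42.9, 39.2 and 45.7 in vehicle day 3, 54.1, 56.7 and 61.4 in vehicle day 5 and 38.8, 41.1 and 43.5 in vehicle day 7. In VB6 its libraries had 48.5, 45.5 and 42.5 CPM, then 44.1, 41.1 and 42.7, then 44.9, 48.0 and 52.3. As a share of the summed kinase TPM, Pdk1 made up 48.9% in ES, 73.5% at vehicle day 3 and 47.8% at vehicle day 7. Pdk4 made up 11.4% in ES and 2.28 to 3.65% in the other groups, and Pdk3 made up 28.4% in ES, 19.5% at vehicle day 3 and 37.2% at vehicle day 7. The kinase transcripts at day 3 were therefore mostly Pdk1, and those at day 7 were shared between Pdk1 and Pdk3.

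Pdk1 was also the member whose 2 deposited scales differed most. The length implied by dividing counts by FPKM and library size was 3003 to 3193 bases in ES and 3826 to 4044 at vehicle day 7 but 2141 to 2259 at vehicle day 5, and the highest group mean was 1.77 times the lowest. From vehicle day 3 to day 5, Pdk1 therefore changed by -0.15 ± 0.05 in counts, by -0.44 after correction and by 1.04 on the TPM scale. Mdh1, cytosolic malate dehydrogenase, came next at 1.52 times, 5 members were over 1.3 times and 22 were under 1.2 times.

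**Figure D3:**
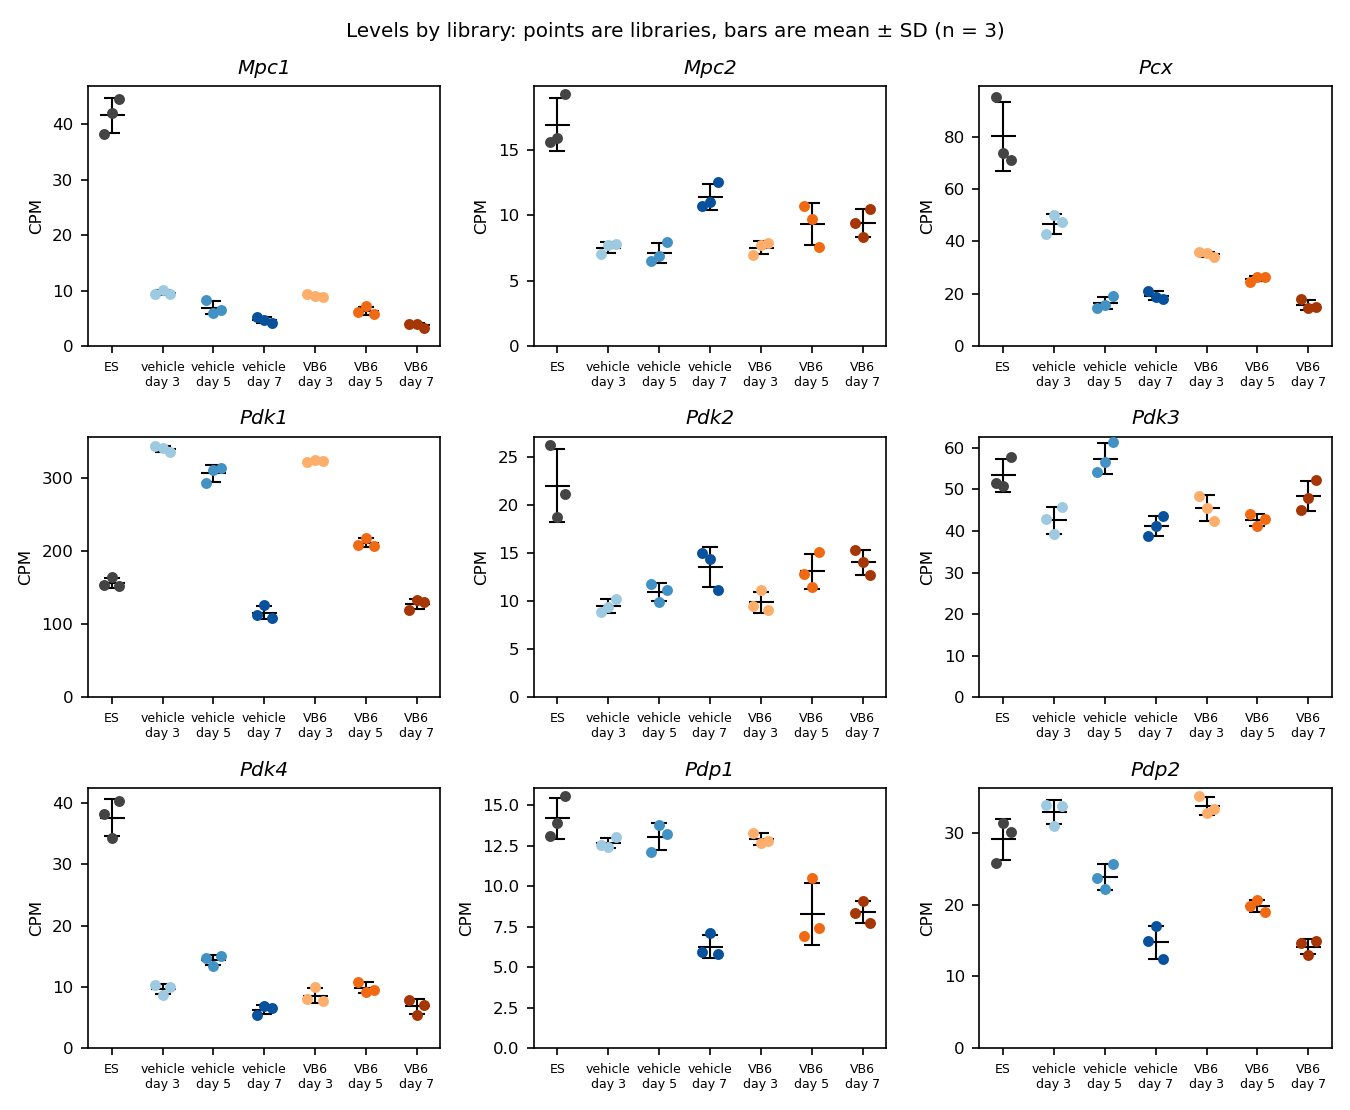
CPM in each library, with group means and SD (n = 3), for the carrier genes, Pcx, the 4 kinases and the 2 phosphatases. Mpc1 falls from 41.6 in ES to 4.76 at vehicle day 7 and 3.81 at VB6 day 7, Pdk1 peaks at day 3 (340 and 323), and Pdp1 and Pdp2 are lower at day 7 than at day 3.

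The phosphatases, which reverse the action of the kinases, did not pass the test in counts at vehicle day 3 against ES (0 of 2). After correction 1 of the 2 was called lower there. Both fell later. Pdp1, a calcium-stimulated form, had 13.1, 13.9 and 15.6 CPM in ES, 12.5, 12.5 and 13.1 in vehicle day 3, 12.2, 13.8 and 13.3 in vehicle day 5 and 5.93, 7.12 and 5.81 in vehicle day 7. Pdp2 had 25.8, 31.3 and 30.1 CPM in ES, 33.9, 30.9 and 33.6 in vehicle day 3, 23.7, 22.1 and 25.7 in vehicle day 5 and 14.9, 17.0 and 12.4 in vehicle day 7. From vehicle day 3 to day 7, Pdp1 fell by 1.01 on the log2 scale (SE 0.13) and Pdp2 fell by 1.16 (SE 0.10). In VB6, Pdp1 had 13.3, 12.7 and 12.8 CPM at day 3, 6.93, 10.5 and 7.44 at day 5 and 8.37, 9.11 and 7.76 at day 7. Pdp2 in VB6 had 35.1, 32.7 and 33.3, then 19.7, 20.7 and 19.0, then 14.6, 12.9 and 14.9 CPM. Kinase and phosphatase transcripts were thus both lower at day 7 than at day 3 for Pdk1, Pdk4, Pdp1 and Pdp2 in vehicle, with the Pdk4 call lost on the TPM scale (-0.21, limma adjusted p = 0.135).

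Pcx (chr19:4510472-4621752), pyruvate carboxylase, fell at both intervals up to day 5 in vehicle. It had 95.3, 73.9 and 71.2 CPM in ES, 42.7, 49.96 and 47.4 in vehicle day 3, 14.5, 15.95 and 19.2 in vehicle day 5 and 21.2, 18.8 and 17.99 in vehicle day 7. In VB6 it had 35.8, 35.5 and 34.1 CPM at day 3, 24.7, 26.4 and 26.4 at day 5 and 18.02, 14.6 and 14.9 at day 7. The change from ES was -0.78 ± 0.10 at vehicle day 3 and -1.19 ± 0.10 at VB6 day 3, and from vehicle day 3 to day 7 it was -1.27 ± 0.11 (edgeR adjusted p = 4.51e-10). Every library outside ES was below the lowest ES library, and in VB6 each later group lay below the earlier one.

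Changes within the cycle were of various sizes. Within succinate dehydrogenase, the complex shared by the cycle and the respiratory chain, Sdhc had 161, 155 and 158 CPM in ES and 78.5, 88.4 and 80.7 in vehicle day 3, and its group means then stayed between 70.9 and 89.6. Sdhb, the iron-sulfur subunit, changed by -0.62 ± 0.06 from ES to vehicle day 3, Sdhd by -0.35 ± 0.06 and the flavoprotein Sdha by -0.13 ± 0.05. The 4 genes of this complex thus fell together, by unequal amounts whose differences were not tested. From citrate to succinyl-CoA, the isocitrate dehydrogenase subunits Idh3g and Idh3b changed by -0.60 ± 0.05 and -0.45 ± 0.05, Ogdh, the E1 subunit of 2-oxoglutarate dehydrogenase, by -0.49 ± 0.06 and citrate synthase, Cs, by -0.40 ± 0.04. Idh3a, the catalytic subunit of the same isocitrate dehydrogenase, had a value of 0.01 ± 0.05 and Dlst of -0.09 ± 0.05, and neither passed the test. Of the dehydrogenase complex, Pdha1, the E1 alpha subunit, changed by -0.51 ± 0.05 and Pdhb by -0.42 ± 0.05, whereas Dlat (-0.10 ± 0.05), Dld (-0.11 ± 0.06) and Pdhx (0.07 ± 0.09) did not pass. These contrasts are those of the counts. After correction, 4 of the 5 genes of this complex were called lower, and 5 of the 6 from citrate to succinyl-CoA. Mdh2 was the second member called higher, at 0.22 ± 0.06 in counts and 0.41 after correction, but not on the TPM scale (0.13, limma adjusted p = 0.181).

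**Figure D4:**
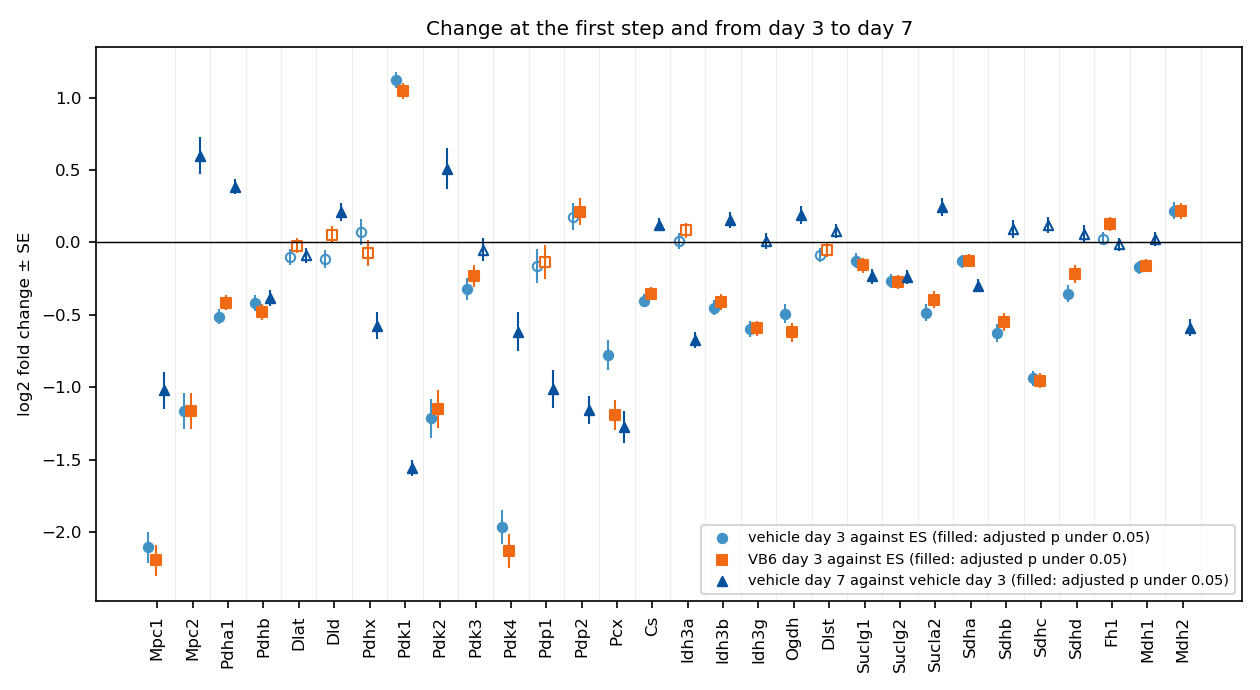
Log2 fold change in CPM ± SE of each member, by role, for vehicle day 3 against ES, VB6 day 3 against the same ES libraries, and vehicle day 7 against vehicle day 3. The changes of both day 3 groups run from about -2.1 for Mpc1 to about 1.1 for Pdk1, and in the later interval Pdk1 is the lowest at -1.56 and Mpc2 the highest at 0.60.

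Between vehicle day 3 and day 7, 2 groups of libraries with overlapping fragment lengths, 13 members were called lower and 8 higher by edgeR (21 of 30, against 67.4% of genes tested, 33.1% lower and 34.3% higher). Of these, 19 were called the same way after correction (14 lower and 7 higher in that fit, 74.5% of its genes called), and 10 lower and 6 higher were also called so on the TPM scale. That scale by itself called 13 higher and 10 lower, which turns the balance, with the median of all genes at 0.095. Besides Pdk1, Pcx, Mpc1 and both phosphatases, the lower genes that held in all 3 versions were Idh3a (-0.67 ± 0.05), Mdh2 (-0.59 ± 0.06), Pdhx (-0.57 ± 0.09), Pdhb (-0.38 ± 0.06) and Sdha (-0.30 ± 0.05). The higher ones were Mpc2 (0.60), Pdk2 (0.51), Pdha1 (0.39), Sucla2, the ATP-forming beta subunit of succinyl-CoA ligase (0.24), Dld, the E3 subunit shared by several dehydrogenases (0.21), and Idh3b (0.16). Genes of 1 complex moved apart: Pdha1 rose while its partner Pdhb fell, and Idh3a fell while Idh3b rose and Idh3g (0.01 ± 0.05) did not pass the test. Idh3a, whose ES and vehicle day 3 means were both 166 CPM, was at 104 ± 2.88 CPM at vehicle day 7 and 103 ± 5.75 at VB6 day 7. The visceral endoderm markers rose over this interval from 22.7 to 31.8 TPM in sum to 1628 to 1752, and 3 pluripotency markers fell from 1154 to 1297 to 185 to 224. The count-weighted GC content did not overlap (48.8 to 49.0% at day 3 and 49.3 to 49.7% at day 7), nor did the mitochondrial share (2.34 to 2.57 and 1.95 to 2.28%). The part of all these in the changes was not tested.

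The vehicle day 5 libraries allow an intermediate point, with the limit of their short fragments. Against vehicle day 3, 14 members were called lower and 7 higher (against 65.3% of genes tested called either way, 33.4% lower and 31.9% higher). After correction it was 13 lower and 5 higher (67.0% of genes called), and on the TPM scale the split turned to 21 higher and 4 lower, with the median of all genes at 0.24 on that scale. The calls that held in counts, after correction and in TPM were Pcx (-1.50), Mdh2 (-0.91), Suclg1, the alpha subunit of succinyl-CoA ligase (-0.66), Pdhx (-0.56), Pdk4 (0.58) and Pdha1 (0.49). Pcx and Mdh2 were thus lower by day 5 in all 3 versions. From vehicle day 5 to day 7, 10 were called lower and 9 higher (66.3% of genes tested, 31.1% lower and 35.2% higher), against 12 lower and 10 higher after correction (62.8% of genes called) and 19 lower and 5 higher in TPM, where the median of all genes was -0.13. Those that held on all 3 were Pdk1 (-1.40), Pdk4 (-1.20), Pdp1 (-1.06), Pdp2 (-0.69), Idh3a (-0.62), Mpc1 (-0.54) and Suclg2, the GTP-forming beta subunit (-0.37), and, on the higher side, Mpc2 (0.68), Suclg1 (0.43) and Sdhd (0.31). Mdh1 rose by 0.39 ± 0.05 in counts and fell by 0.43 on the TPM scale.

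In VB6 the interval from day 3 to day 5, again between libraries with overlapping fragment lengths, gave 14 lower and 3 higher (56.2% of genes tested, 26.4% lower and 29.9% higher), and after correction 15 lower and 4 higher (62.6% of genes called). The count-weighted GC content did not overlap (48.7% in each day 3 library and 49.2 to 49.6% at day 5), nor did the mitochondrial share (2.65 to 2.94 and 2.09 to 2.57%). The part of these in the calls was not tested. The TPM scale turned the balance, with 6 lower and 10 higher and the median of all genes at 0.12. The 3 higher were Mpc2, Pdk2 and Ogdh, and 6 lower and 1 higher also held after correction and in TPM: Pdp2 (-0.76 ± 0.09), Pdp1 (-0.63 ± 0.12), Pdk1 (-0.61 ± 0.05), Mpc1 (-0.50 ± 0.12), Idh3a (-0.43 ± 0.05), Pdhb (-0.35 ± 0.06) and Mpc2 (0.31 ± 0.13). The Mpc2 groups overlapped, and its call was lost without VB6 day 3 replicate 1, 2 or 3 or without VB6 day 5 replicate 1 or 2 (edgeR adjusted p between 0.0606 and 0.24). The Mpc2 call was also lost in the DESeq2 Wald test (adjusted p = 0.107). In edgeR it was lost with DESeq2 size factors (adjusted p = 0.0832), no filter (0.117) or only the libraries compared (0.0658). The 3 higher calls became 1 or 2 when any 1 library was left out, and 1 without VB6 day 3 replicate 1 or 3. From VB6 day 5 to day 7, where the later libraries are the short-fragment ones, 11 were lower and 7 higher (54.5% of genes tested, 27.3% each way), against 13 lower and 7 higher after correction (57.7% of genes called) and 3 lower and 19 higher in TPM, where the median of all genes was 0.21. Mpc1 (-0.76), Pcx (-0.71), Mdh2 (-0.54), Pdha1 (0.38), Sucla2 (0.30), Cs (0.28) and Ogdh (0.27) kept their calls in all 3 versions. Pdk1 fell by 0.73 on the log2 scale in counts (SE 0.06), with 0.08 on the TPM scale.

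The effect of pyridoxine itself was read against vehicle on the same day. At day 3, where fragment lengths of the arms overlapped, 1 of 30 members was called by edgeR, lower, against 4.26% of genes tested (2.77% lower and 1.49% higher). That gene was Pcx, with the values given above, at 46.7 ± 3.70 CPM in vehicle and 35.1 ± 0.918 in VB6, a change of -0.41 ± 0.11 (adjusted p = 0.0275). The 3 VB6 libraries lay below the 3 vehicle libraries. After correction, where 7.72% of genes were called, the edgeR value was -0.28 (adjusted p = 0.0227), with Pdhb at -0.13 also called (adjusted p = 0.0363), and on the TPM scale no member was called (Pcx -0.42, limma adjusted p = 0.0975). The Pcx call was lost without vehicle day 3 replicate 2 or 3 or without any 1 of the VB6 day 3 replicates, with values between -0.42 and -0.36 and edgeR adjusted p of 0.0891 to 0.159. The mean GC content of annotated transcripts, weighted by counts, did not overlap between these arms (48.8 to 49.0% in vehicle and 48.7% in each VB6 library). Nor did the mitochondrial share (2.34 to 2.57 and 2.65 to 2.94%) or the ribosomal protein share (5.52 to 6.06 and 6.23 to 6.48%). Summed markers were also apart, at 72.3 to 81.8 TPM in vehicle and 58.8 to 63.6 in VB6 for naive cells, 1154 to 1297 and 977 to 991 for pluripotent cells, and 22.7 to 31.8 and 36.4 to 43.3 for visceral endoderm. Of the pluripotency markers, Pou5f1 (mean 992 in vehicle and 795 in VB6) and Sox2 (147 and 104) were lower in VB6. Nanog went the other way in its mean (81.4 and 87.1), with overlapping libraries. The part of all these in the result was not tested. Of the other 29, the widest apart were Dld (0.17 ± 0.06) and Pdk4 (-0.16 ± 0.13), which did not pass the test. Pcx did not keep its direction on later days, where 1 arm was a short-fragment group. Its difference was 0.64 at day 5, called higher in counts, and 0.11 after correction, not called. At day 7 it was -0.29 in counts and -0.12 after correction, called in neither.

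At day 5 and day 7 one arm was always a short-fragment group, and few calls were shared by the 3 versions. At day 5, 11 members were called lower and 10 higher in VB6 than in vehicle (56.7% of genes tested, 25.5% lower and 31.2% higher). The correction changed this to 5 lower and 8 higher, with 38.3% of the corrected genes called, and the TPM scale gave 18 lower and 3 higher, with the median of all genes at -0.13. Only Pdk1 (-0.53 ± 0.05), Pdk4 (-0.54 ± 0.12) and Suclg1 (0.39 ± 0.05) were called the same way in all 3. Their corrected values were -0.34, -0.36 and 0.33. For Pdk1 the 3 VB6 libraries (207 to 218 CPM) lay below the vehicle ones (293 to 314). Summed markers did not overlap between these arms either, at 660 to 671 TPM in vehicle and 407 to 500 in VB6 for epiblast, 73.4 to 85.9 and 106 to 126 for endoderm, and 429 to 535 and 638 to 724 for visceral endoderm, and their part in the values was not tested. Other calls moved: Mdh2 went from 0.58 to 0.02 after correction, Sdhb from 0.27 to -0.32 and Dld from -0.42 to 0.24. All 4 succinate dehydrogenase genes were called higher in counts, and 1 higher and 1 lower after correction.

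At day 7, 5 members were called lower and 6 higher (36.5% of genes tested, 17.9% lower and 18.6% higher), against 6 and 3 after correction (27.9% of corrected genes called) and 1 and 19 in TPM, where the median of all genes was 0.19. The 6 higher in counts became 3 without vehicle day 7 replicate 1 or 3 or without VB6 day 7 replicate 3. Cs (0.21 ± 0.04, adjusted p = 0.000616 by edgeR) and Ogdh (0.20 ± 0.06, adjusted p = 0.0179 by edgeR) were the 2 called the same way in all 3 versions, with corrected values of 0.14 and 0.20. Citrate synthase opens the cycle and Ogdh acts in its middle. Sdhb was -0.37 in counts and 0.00 after correction, and Mdh2 was -0.28 and 0.01. The visceral endoderm markers also differed between these arms (1628 to 1752 and 2185 to 2767 TPM in sum), and their part in the values was not tested.

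Opposite signs at day 5 and day 7 were the general pattern of all genes. All 9 members called on both days had opposite signs, against 28.2% of genes tested that were called on both with opposite signs (96.1% of the genes called on both). After correction it was 6 of 6, against 14.7% (87.5% of those called on both), so the counts are read as nothing particular to the members. A test of whether the VB6 difference differed between days called 21 of 30 members (60.0% of genes tested), or 16 after correction (45.0%). Vehicle day 5 and VB6 day 7 are the short-fragment groups and enter these 2 contrasts on opposite sides, so fragment length and treatment cannot be told apart there. Averaged over the 3 days, 2 members were called (11.7% of genes tested, 6.58% higher and 5.16% lower): Pdk1 at -0.15 ± 0.03 (edgeR adjusted p = 0.00303), which was -0.15 after correction and -0.30 on the TPM scale, and Cs at 0.08 ± 0.03 (edgeR adjusted p = 0.0463). After correction 2 were called, both lower (13.1% of genes called): Pdk1 and Sdhb (-0.10, edgeR adjusted p = 0.039), while Cs was at 0.06 (edgeR adjusted p = 0.0694). The Cs call was lost in 15 of the 18 fits that left out 1 library, with adjusted p between 0.0539 and 0.0974. The Pdk1 values behind this mean were -0.07 ± 0.05 at day 3, -0.53 ± 0.05 at day 5 and 0.14 ± 0.06 at day 7.

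**Figure D5:**
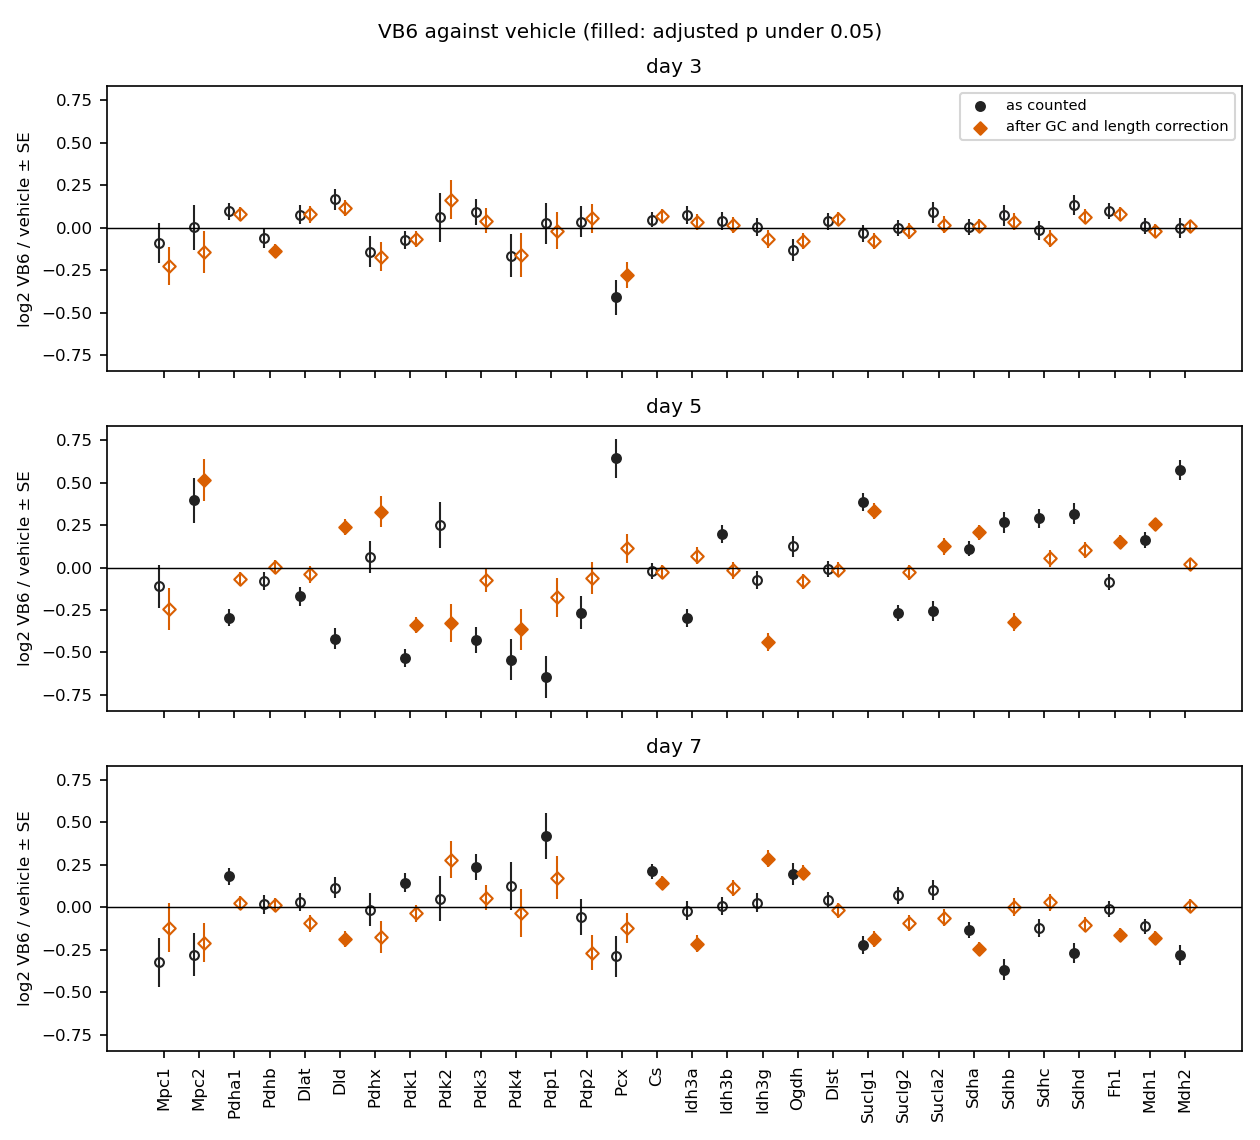
Log2 fold change of VB6 against vehicle ± SE at days 3, 5 and 7 for each member, as counted and after correction for GC content and transcript length. The day 3 values lie between -0.41 for Pcx and 0.17 for Dld, and at days 5 and 7 many corrected values, such as those of Mdh2 (0.02 and 0.01), sit closer to 0 than the counted ones.

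Genes that feed, drain or assemble the cycle were followed in a list of 34, of which 33 were tested. From ES to vehicle day 3, 14 rose and 11 fell (75.8% of the list, against 64.9% of all genes tested). The dicarboxylate carrier Slc25a10 (2.12 ± 0.15) and the lactate transporters Slc16a3 (0.98 ± 0.08) and Slc16a1 (0.87 ± 0.07) rose, and Lias (-0.83 ± 0.07), which makes the lipoate cofactor of the dehydrogenases, fell. From vehicle day 3 to day 7, 8 rose and 12 fell (60.6% against 67.4%), with Slc16a1 at 1.60 ± 0.07 and the lactate dehydrogenase subunit Ldhb at -1.34 ± 0.08. At day 3, 1 of the 33 was called for VB6, lower: Pck2, mitochondrial phosphoenolpyruvate carboxykinase, which like Pcx handles oxaloacetate (-0.34 ± 0.09, edgeR adjusted p = 0.024), against 4.26% of all genes. At day 5, 15 were higher and 7 lower in VB6 (66.7% of the list against 56.7% of all genes), or 10 and 10 after correction (38.3% of all genes). At day 7, 8 were higher and 9 lower (51.5% against 36.5%), or 7 and 7 after correction (27.9% of all genes). Pck2 was 0.88 ± 0.09 at day 5 (0.48 corrected) and -0.50 ± 0.09 at day 7 (-0.37 corrected), and Me1, cytosolic malic enzyme, was 0.58 ± 0.08 at day 7 (0.43 corrected).

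Among 16 regulators of mitochondrial genes, 15 were tested. From ES to vehicle day 3, 6 rose and 7 fell (86.7% of the list, against 64.9% of all genes tested), led by the oestrogen-related receptor Esrrb, which is also a naive stem cell factor (-3.09 ± 0.08), with Ppard at -1.18 ± 0.12 and Gabpa, an ETS factor, at -0.69 ± 0.07. From vehicle day 3 to day 7, 5 rose and 8 fell (86.7% against 67.4%), with Esrrb at -2.04 ± 0.09 and Tfam, which maintains mitochondrial DNA, at -0.50 ± 0.05. For VB6 at day 3, 3 of the 15 were called (against 4.26% of all genes), all lower, and Epas1, the hypoxia-inducible factor 2 alpha subunit, was the furthest at -1.06 ± 0.13 (edgeR adjusted p = 5.72e-05). At day 5 it was 9 higher and 4 lower, against 56.7% of all genes called (3 and 2 after correction, against 38.3%), where Hif1a, the subunit of hypoxia-inducible factor 1, went from -0.65 ± 0.06 in counts to 0.00 after correction, and at day 7 it was 3 and 3, against 36.5% (2 and 2 after correction, against 27.9%). Epas1 was 0.65 ± 0.12 at day 7 (0.63 corrected).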

How the data were processed

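RNA of 21 libraries was extracted with TRIzol, per the labels' protocols. These also describe enriching small RNA, which leaves the library type uncertain. The authors deposited expected counts, unnormalized estimates of which 26.9 to 30.5% of the nonzero values in a library had a fraction. They deposited TPM as well, which divides by transcript length and sets every library to 1 total, and FPKM, which was deposited by the authors and used only for effective lengths and as an alternative scale for shares. The build is mm10 per the submitters' processing notes. Neither the aligner nor the counting program is named in the sources used here. The 21909 rows without a symbol carry gene IDs and were tested like the others.

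Expected counts were rounded and fitted in edgeR 4.0.16 (R 4.3.3) with TMM scaling, filterByExpr (18901 genes) and the quasi-likelihood test over all 7 groups, with Benjamini-Hochberg adjustment over all genes and a threshold of 0.05. A count test was planned for whole counts, so the rounding is a departure. A second fit added offsets for GC content and transcript length (16159 genes, 85.5% of those tested, with all 30 members). TPM was tested with limma 3.58.1 on log2(TPM + 1), which understates changes of low genes. Shares within gene families were compared by exact permutation tests. Positions come from GENCODE M21 (mm10) and promoter windows from RefSeq (GRCm38.p6). The fits were tested on simulated counts. The members, lists and alternatives were chosen with earlier results of these data known. Values in every library are given for carrier, kinase and phosphatase genes and members called with a log2 change of at least 1 and no overlap, and otherwise for up to 4 members per comparison with the smallest p, or by counts. Up to 4 genes of each other list are named by the same rule. Alternatives were DESeq2 1.42.0, its size factors, other filters, fewer libraries, a replicate block and leaving out each library.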

Additional observations from a re-analysis of the deposited data

Results flagged for a closer look

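The difference between VB6 and vehicle differed between days 3, 5 and 7 in 21 of 30 members by the edgeR test of that difference itself. The adjusted p values of that test are given with those after the GC and length correction, which left 16 of 30 called. Of the carrier and the dehydrogenase complex, the test called Mpc2 (0.00999, 0.00167 corrected), Pdha1 (7.04e-06, 0.103 corrected), Dlat (0.0174, 0.112 corrected) and Dld (4.34e-06, 4.98e-05 corrected). Of the kinases and phosphatases, the test called Pdk1 (2.88e-07, 0.000897 corrected), Pdk3 (3.08e-05, 0.497 corrected), Pdk4 (0.011, 0.3 corrected) and Pdp1 (8.48e-05, 0.226 corrected). Pyruvate carboxylase and the steps from citrate to succinyl-CoA gave Pcx (6.42e-06, 0.0213 corrected), Cs (0.00805, 0.0438 corrected), Idh3a (0.000495, 0.0027 corrected) and Ogdh (0.00799, 0.000822 corrected). Of succinyl-CoA ligase, the test called Suclg1 (7.39e-07, 1.39e-06 corrected), Suclg2 (0.000432, 0.552 corrected) and Sucla2 (0.000883, 0.0829 corrected). Of succinate dehydrogenase, the test called Sdha (0.00829, 4.44e-06 corrected), Sdhb (4.94e-06, 0.000507 corrected), Sdhc (0.00018, 0.33 corrected) and Sdhd (8.42e-06, 0.0229 corrected). The malate dehydrogenases gave Mdh1 (0.0033, 3.41e-06 corrected) and Mdh2 (2.22e-08, 0.982 corrected). Mdh2 was no longer called after correction: its VB6 values were 0.58 at day 5 and -0.28 at day 7 as counted, and 0.02 and 0.01 corrected. Suclg1 was called in both fits, with values of 0.39 and -0.22 as counted and 0.33 and -0.19 corrected. In both contrasts one arm is a short-fragment group, vehicle at day 5 and VB6 at day 7, so fragment length and treatment cannot be told apart. No group of 3 libraries is large enough for a check of single outlying libraries.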

How the results depend on the processing

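The 82 pairs of a named member and a comparison kept direction and call under every setting run in 50 cases; 28 missed the threshold under at least 1 setting and 10 reversed under at least 1. The cause of these shifts was not tested. Whether depth limits the calls was not tested. On the TPM scale, with either pseudocount, members called higher and lower were 21 and 4 for vehicle day 5 against day 3, 5 and 19 for vehicle day 7 against day 5, 19 and 3 for VB6 day 7 against day 5, 3 and 18 for VB6 against vehicle at day 5 and 19 and 1 at day 7. That scale also gave 13 higher for vehicle day 7 against day 3, 1 higher for vehicle day 3 and for VB6 day 3 against ES, 10 higher (11 with a pseudocount of 0.1) and 6 lower for VB6 day 5 against day 3, 0 lower for VB6 at day 3, and 0 higher and 4 lower (3 with 0.1) for the mean of the days. It reversed Pdk1 at vehicle day 5 against day 3 (1.04, or 1.05 with 0.1), Mdh1 at vehicle day 7 against day 5 (-0.43), and Pdk1 (0.077 with both) and Idh3a (0.16) at VB6 day 7 against day 5. The share of all genes called on the TPM scale was not computed, so its counts are not read as particular to the members.

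The GC and length correction, with or without a replicate block, gave 2 higher for VB6 day 3 against ES, and for VB6 against vehicle 2 lower at day 3, 5 lower at day 5, 3 higher at day 7, and 0 higher and 2 lower for the mean. It reversed Pdp2 at VB6 day 3 against ES (-0.0066, block -0.0069), Dld at day 5 (0.24) and, at day 7, Pdk1 (-0.036) and Mdh2 (0.0081, block 0.0084). With the block it also reversed Pdk3 at VB6 day 7 against day 5 (-0.00098) and Sdhb at day 7 (0.00012). The mean of the days had 0 higher with DESeq2 size factors, no filter, a stricter filter or a replicate block, 2 higher with only the libraries compared and 2 lower with DESeq2. With only the libraries compared, 2 were higher for VB6 at day 3, and with no filter 2 were higher at day 7. Without 1 library, the calls ranged from 2 to 4 higher for VB6 day 3 against ES and from 1 to 2 for VB6 day 5 against day 3. For VB6 against vehicle they ranged from 0 to 1 lower at day 3, 3 to 6 higher at day 7, and 0 to 2 higher and 1 to 2 lower for the mean.

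The replicate block was run although the numbers did not pair libraries (correlations of -0.344 to 0.216 between same-numbered libraries in the comparisons), and it changed 2 of the 82 calls. At 1 fixed length per gene, the Pdk1 share of kinase transcripts was 44.4% in ES, 66.3% at vehicle day 5 and 48.7% at VB6 day 7, that of Pdk4 12.3% in ES, 3.61% at vehicle day 5 and 3.11% at vehicle day 7, that of Sucla2 45.2% at VB6 day 3 and that of Mpc1 76.0% in ES. Without the vehicle day 5 and VB6 day 7 libraries, a setting chosen after seeing the data, the counts of lower and higher members were 20 and 2 for vehicle day 3 against ES, 13 and 8 for vehicle day 7 against day 3, 20 and 3 for VB6 day 3 against ES, 14 and 2 for VB6 day 5 against day 3 and 1 and 0 for VB6 at day 3. The calls of Pdp2 (edgeR adjusted p = 0.053) and Mpc2 (edgeR adjusted p = 0.0595) at VB6 day 3 and day 5 were lost in it.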
